A study of Mus musculus with 8 samples.

Results

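The 10 genes described here encode the interleukin-6 family signalling parts chosen by name: the ligands Il6, Lif, Osm (oncostatin M), Il11 and Clcf1, the receptor chains Il6ra, Il6st (gp130), Osmr and Lifr, and the feedback inhibitor Socs3. All 10 were present among the 21848 genes of the count matrices. A further 47 genes of the same pathway were described beside them. Photothrombosis (PT), a light-induced clotting of cortical vessels that serves as a stroke model, was made in the right sensorimotor cortex under a field of 4 mm. Single cells of the lesion with adjacent spared cortex were sequenced 6 days later from 4 mice given saline (control) and 4 mice given ancrod, a snake venom protease that depletes plasma fibrinogen, at 2.4 U per day (2.0 mg per kg of body weight). Both were released by osmotic minipumps implanted 2 days before PT, and each mouse gave 1 library. There was no uninjured group, so every level is a level after PT. The labels name wild-type C57Bl/6J females, whereas the methods of the study name C57BL/6N mice of both sexes, and the labels and the methods could not be reconciled. The meninges were removed and the cells were not sorted. Replicates 1 to 3 of each group were in batch 1 and replicate 4 in batch 2.

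Ligands of this family signal through gp130, which nearly all cells can make, and the second receptor chain decides which cells respond. Il6 and Il11 first bind their own alpha chains, and Lif and Clcf1 use Lifr. Mouse oncostatin M acts mainly through Osmr paired with gp130. The receptors activate JAK kinases and the transcription factor Stat3, which induces Socs3, a protein that binds gp130 and shuts the signal down. In the injured brain the family is known for driving astrocyte reactivity, acute phase genes and vascular inflammation.

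Unique molecular identifiers (UMIs), which count captured RNA molecules, were read from 15483997 barcodes, and 46216 droplets held at least 2000 UMIs with under 20% mitochondrial UMIs, 5080 to 6277 per mouse. Saline libraries held 97861434 to 122758649 UMIs and ancrod libraries 126682918 to 142139441, so depth did not overlap between the groups. At most 15 barcodes were shared by any pair of libraries. After removal of 2144 doublets, 44072 cells fell into 55 clusters, built without the genes described here, and 16 classes were named from marker genes ("-like"). The 12 classes with at least 10 cells in every mouse were tested. Endothelial-like cells made up 19.4 to 22.8% of the cells in saline and 6.89 to 16.8% in ancrod mice, infiltrating macrophage-like cells 5.00 to 8.24% and 9.09 to 12.1%, and fibroblast-like cells 0.486 to 4.41% and 2.01 to 10.7%, of which only the last range overlapped between groups. Neuron-like cells were 0.151 to 3.73% of the cells of this cortical tissue, and no cluster was named oligodendrocyte-like. All levels below are CPM, the UMIs of a gene per 1000000 UMIs summed over the cells of a mouse, and are compared between classes for 1 gene at a time, in order only among the 14 classes found in every mouse. Ependymal-like cells (81 cells in 4 mice) are outside that order, with pooled levels of 607 CPM for Socs3 and 98.7 CPM for Osmr.

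Oncostatin M transcripts were found in myeloid cells, while its receptor was found in cells of the vessel wall, fibroblasts and astrocytes. Osm reached 131 ± 23.2 CPM (mean ± SD over 8 mice) in infiltrating macrophage-like cells and 117 ± 14.0 CPM in microglia-like cells. It was at 82.7 ± 24.7 CPM in monocyte-like, 79.7 ± 26.4 CPM in border-associated macrophage-like, 77.1 ± 44.0 CPM in neutrophil-like and 34.6 ± 14.5 CPM in dendritic cell-like cells. The ranges over mice of neighbouring classes in this order overlapped. In endothelial-like, pericyte-like, smooth muscle-like, fibroblast-like and astrocyte-like cells, mean Osm lay between 1.47 and 2.91 CPM. Because they are far more numerous, microglia-like cells held 66.8% of all Osm UMIs and infiltrating macrophage-like cells 26.2%, while these classes held 37.5% and 13.3% of all UMIs.

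The share of cells with an Osm UMI gave the same sources. After each cell was thinned to 5000 UMIs, Osm was detected in 33.5 ± 2.97% of microglia-like cells and 37.3 ± 3.93% of infiltrating macrophage-like cells (SD over 8 mice). Endothelial-like cells, which served as the background, showed it in 0.760 ± 0.473%. Median depths before thinning were 15400, 26546 and 10021 UMIs in the 3 classes. Free RNA, read from droplets with at most 100 UMIs, held Osm at a median of 74.8 CPM. Among 13 microglia-like clusters Osm ranged from 81.0 CPM in a cluster led by P3h2 and Csmd3 to 167 CPM in one led by Olr1, Lpl and Cxcl2. A neuron-like mean of 12.3 CPM (6.59 CPM without saline replicate 1) came mostly from 67 cells of 1 cluster at 92.3 CPM, which also held Il6ra at 112 CPM, against 1.44 CPM of Osm in the other neuron-like cluster. The marker score of these 67 cells, a mean level scaled to the highest cluster, was 0.478 for neuron and 0.466 for microglia markers. The source of their Osm was not tested.

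Osmr, the signalling chain for oncostatin M, was highest in smooth muscle-like cells at 295 ± 101 CPM, followed by pericyte-like at 236 ± 65.4 CPM, endothelial-like at 197 ± 31.4 CPM and fibroblast-like cells at 187 ± 41.2 CPM. These 4 classes overlapped in their ranges. Among the classes found in every mouse, astrocyte-like cells followed at 81.6 ± 20.9 CPM, with a highest mouse of 118 CPM that lay below the lowest fibroblast-like value of 123 CPM. Oligodendrocyte precursor-like cells had 42.1 ± 30.2 CPM, and all microglia-like, macrophage-like, monocyte-like, dendritic, neutrophil-like and T or NK cell-like means were at or below 2.13 CPM. Of all Osmr UMIs, endothelial-like cells held 43.7%, fibroblast-like cells 34.1% and astrocyte-like cells 8.30%.

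**Figure D1:**
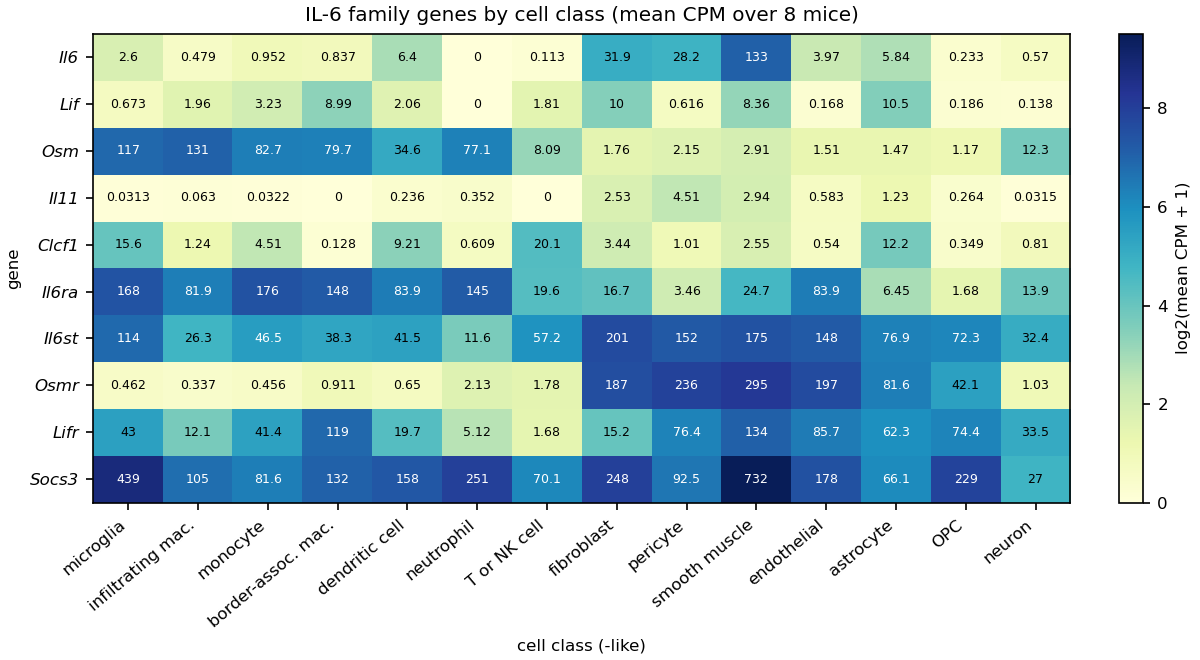
Mean CPM over 8 mice of the 10 genes (rows) in the 14 classes found in every mouse (columns), coloured by log2(mean CPM + 1), with the mean written in each cell. Rows should be read across only. Osm is high in the 6 myeloid columns from microglia to neutrophil and low in the vascular ones, and Osmr is the reverse.

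**Figure D2:**
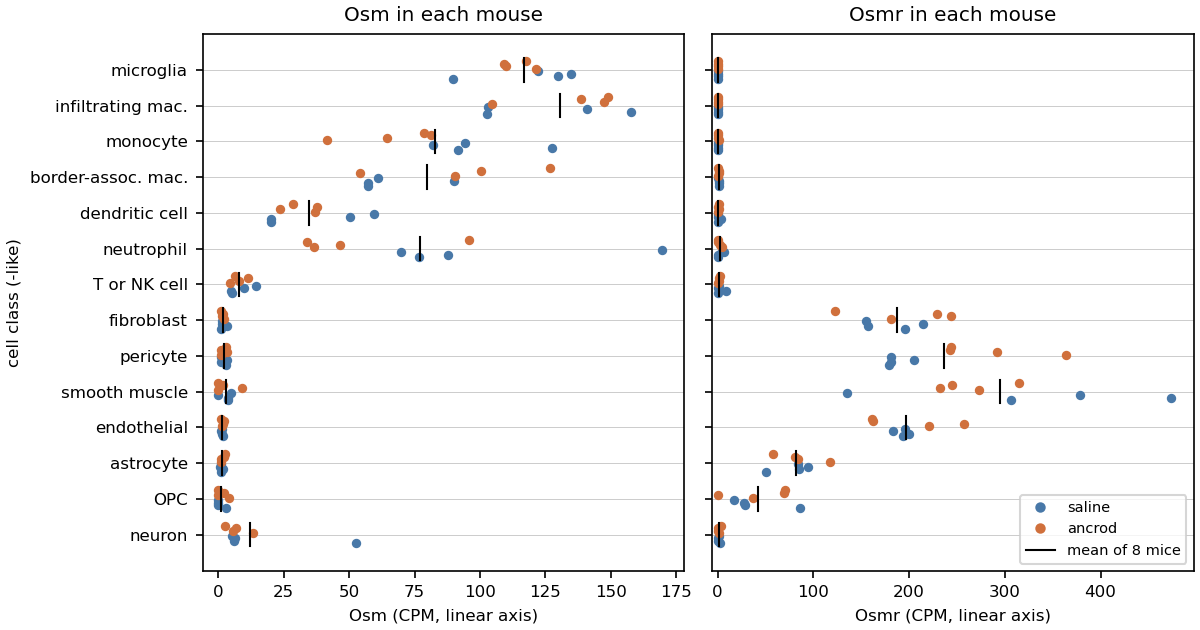
Osm (left) and Osmr (right) in each of 8 mice by class, in CPM on a linear axis, with saline and ancrod mice in different colours and a black line at the mean. Osmr is at or near 0 in the immune classes where Osm is high.

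Osmr and gp130 were detected in the same cell most often in the 4 classes with the highest Osmr, though not in the order of their Osmr levels. Both were detected after thinning in 31.7 ± 9.70% of fibroblast-like, 28.5 ± 5.15% of pericyte-like, 28.1 ± 8.33% of smooth muscle-like and 23.4 ± 1.55% of endothelial-like cells. The share was 6.38 ± 2.22% in astrocyte-like and 0.114 ± 0.0980% in microglia-like cells. Pooled over mice, the joint share was close to that expected if both genes were detected independently, at 28.4 against 27.1% in fibroblast-like, 27.9 against 26.6% in pericyte-like, 28.5 against 28.0% in smooth muscle-like and 23.3 against 22.1% in endothelial-like cells. Il6st itself was measured in every class, from 201 ± 32.2 CPM in fibroblast-like cells, 175 ± 33.5 CPM in smooth muscle-like and 148 ± 9.65 CPM in endothelial-like cells to 11.6 CPM in neutrophil-like cells. Microglia-like cells had 114 ± 10.6 CPM, with ranges that overlapped neither the endothelial-like class above nor the astrocyte-like class below (76.9 ± 9.61 CPM).

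Il6ra, the alpha chain that binds interleukin-6, showed another pattern, with its highest levels in myeloid cells. It stood at 176 ± 35.2 CPM in monocyte-like, 168 ± 29.3 CPM in microglia-like, 148 ± 24.4 CPM in border-associated macrophage-like and 145 ± 49.6 CPM in neutrophil-like cells. Endothelial-like, dendritic cell-like and infiltrating macrophage-like cells were close together at 83.9, 83.9 and 81.9 CPM. Smooth muscle-like cells had 24.7 CPM, below the range of the class before them, and pericyte-like cells 3.46 CPM. Il6ra and Il6st were detected together in 23.8 ± 2.799% of microglia-like, 13.7 ± 2.71% of endothelial-like and 4.91 ± 1.83% of fibroblast-like cells. Within microglia-like clusters Il6ra ran from 82.9 CPM in dividing cells (led by Mki67 and Top2a) to 324 CPM in the P3h2 and Csmd3 cluster, where Osm was lowest.

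Lifr, the receptor chain for Lif and Clcf1, was spread over vascular cells, glia and border-associated macrophages. It reached 134 ± 47.9 CPM in smooth muscle-like, 119 ± 33.7 CPM in border-associated macrophage-like, 85.7 ± 15.9 CPM in endothelial-like and 76.4 ± 18.1 CPM in pericyte-like cells. Fibroblast-like cells, which had the highest mean Il6st level in CPM with a range that overlapped smooth muscle-like cells, had Lifr at 15.2 CPM. Osmr and Lifr lie on the same chromosome with 215644 bases between them (15:6843053-6904450 on the minus strand and 15:7120095-7226970 on the plus strand, GRCm39). Osm and Lif are also neighbours, 16530 bases apart on chromosome 11.

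Among the classes found in every mouse, mean Il6 levels were highest in smooth muscle-like, fibroblast-like and pericyte-like cells. Smooth muscle-like cells had 133 ± 96.0 CPM, the highest class mean, but single mice ran from 17.5 to 295 CPM with 18 to 42 cells each. Fibroblast-like cells had 31.9 ± 14.5 CPM and pericyte-like cells 28.2 ± 21.1 CPM. Fibroblast-like cells held 55.5% of all Il6 UMIs while holding 12.5% of all UMIs, and microglia-like cells held 13.3% at a mean of only 2.60 CPM. Endothelial-like cells held 9.14% of the Il6 UMIs, smooth muscle-like cells 7.32% and pericyte-like cells 4.17%. After thinning, 15.01 ± 11.03% of smooth muscle-like, 9.19 ± 4.28% of fibroblast-like and 1.52 ± 0.554% of microglia-like cells had an Il6 UMI, against 0.176 ± 0.204% of infiltrating macrophage-like cells. None of 689 neutrophil-like cells, with a median of 4851 UMIs, had an Il6 UMI. This allows up to 0.435% of such cells to have a UMI at this depth, counting error only, and does not limit the share that expresses Il6.

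Inside the endothelial-like class, Il6 was high in 1 of 6 clusters. The 392 cells led by Selp, Ackr1, Adamts9 and Sele had Il6 at 30.5 CPM, while the others had 0 to 0.233 CPM. Selp and Sele encode selectins that capture leukocytes, and Ackr1 is a chemokine-binding receptor of venules. In single mice the value in this cluster was 25.0, 17.3, 58.0 and 44.5 CPM with saline and 18.5, 1.96, 18.4 and 36.9 CPM with ancrod, so the groups overlapped. The highest value of any mouse in the largest endothelial-like cluster, led by Gkn3 and Sema3g, was 1.13 CPM. Socs3 was 462 CPM in the Selp cluster and 121 to 161 CPM in the other 5. Il6ra was lowest there, at 31.7 CPM. Clusters are groups of cells from these libraries, and no test was made between them.

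Lif and Clcf1 did not exceed a class mean of 20.1 CPM. Lif, known for acting on astrocytes and neural precursors, had means of 10.5 ± 9.17 CPM in astrocyte-like, 10.0 ± 5.10 CPM in fibroblast-like, 8.99 ± 14.1 CPM in border-associated macrophage-like and 8.36 ± 10.96 CPM in smooth muscle-like cells. Several of these means moved with 1 mouse. The astrocyte-like mean was 7.51 CPM without ancrod replicate 1 (31.2 CPM), below the fibroblast-like mean. Without saline replicate 2 (42.7 CPM) the border-associated macrophage-like mean was 4.18 CPM, and without ancrod replicate 3 (28.1 CPM) the smooth muscle-like mean was 5.55 CPM. Lif was detected in 3.96 ± 1.48% of fibroblast-like and 2.36 ± 1.25% of astrocyte-like cells after thinning, against 0.113 ± 0.154% of endothelial-like cells. Clcf1, a ligand that needs a partner chain for secretion, was at 20.1 ± 4.74 CPM in T or NK cell-like, 15.6 ± 4.90 CPM in microglia-like and 12.2 ± 8.40 CPM in astrocyte-like cells. The astrocyte-like Clcf1 mean was 9.49 CPM without ancrod replicate 1 (31.0 CPM). Microglia-like cells held 73.2% of all Clcf1 UMIs. It was seen in 6.92 ± 1.55% of them and in 0.521 ± 0.516% of the deeper infiltrating macrophage-like cells. Il11, known for its part in fibrosis, did not exceed a class mean of 4.51 ± 6.08 CPM (pericyte-like), which was 2.40 CPM without ancrod replicate 1 (19.3 CPM from 16 UMIs). The smooth muscle-like mean was 2.94 ± 4.35 CPM, or 1.76 CPM without ancrod replicate 3, and the fibroblast-like mean 2.53 ± 0.627 CPM. No Il11 UMI was found in 728 border-associated macrophage-like cells, which allows up to 0.412% of cells with a UMI and does not limit the share that expresses it.

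The astrocyte-like class was uneven for nearly all of these genes. A cluster of 288 cells led by Ckap2 and Fabp7, with Rrm2, Prc1, Cenpf and Ccnb1 of dividing cells among its leading genes, and a cluster of 263 cells led by Myoc, Fabp7 and Igfbp2 had Lif at 25.7 and 22.8 CPM, Clcf1 at 34.7 and 25.1 CPM and Il6 at 10.4 and 16.8 CPM. In the other 3 clusters, with 382 to 962 cells, Lif was 2.32 to 5.47 CPM, Clcf1 0.723 to 9.48 CPM and Il6 0.620 to 1.09 CPM. Osmr followed at 86.3 and 165 CPM against 46.1 to 66.4 CPM, and Socs3 at 82.8 and 179 CPM against 11.3 to 26.6 CPM. Lifr ran the other way, at 22.9 and 47.2 CPM against 60.3 to 110 CPM. In the Myoc cluster Socs3 lay between 108 and 245 CPM in all 8 mice, and in the cluster led by Clu and Ntsr2 between 7.52 and 23.7 CPM. In the dividing cluster mice differed widely, with Lif between 0 and 62.4 CPM.

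**Figure D3:**
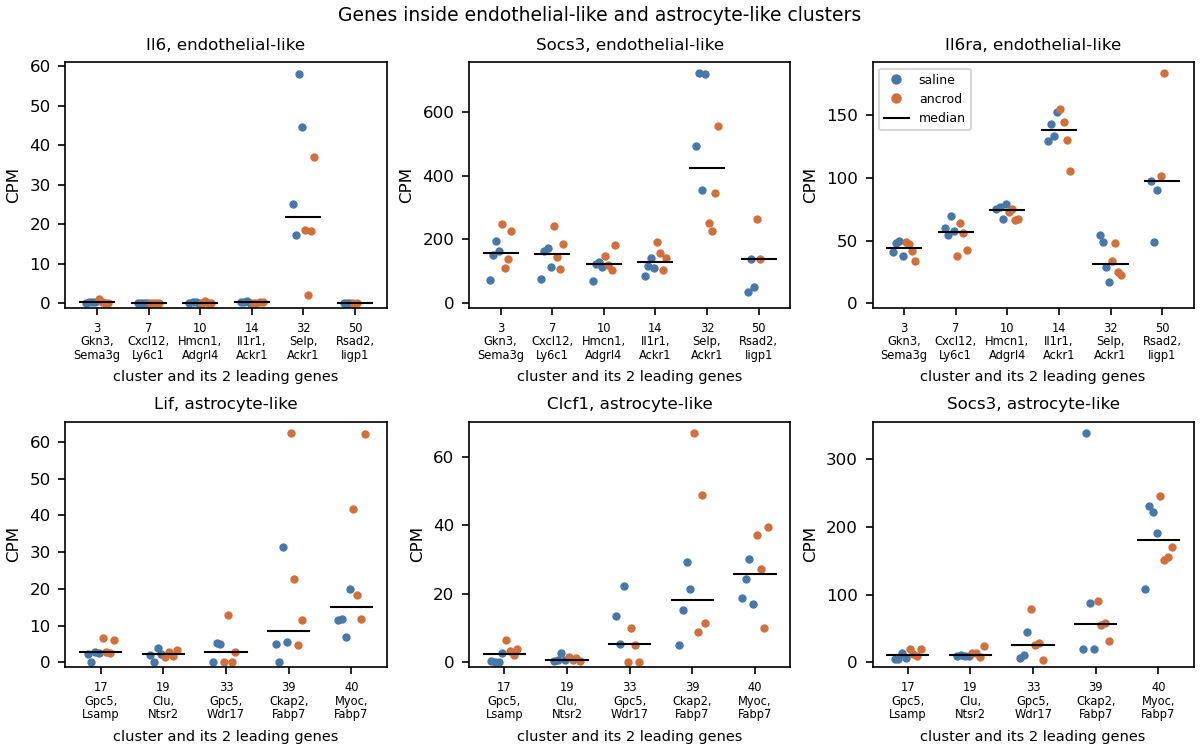
CPM per mouse (points; saline and ancrod in different colours; black line, median) of Il6, Socs3 and Il6ra in the 6 endothelial-like clusters (top) and of Lif, Clcf1 and Socs3 in the 5 astrocyte-like clusters (bottom), with each cluster named by its number and its 2 leading genes. Il6 stands above 0 mainly in the Selp cluster (number 32), and Socs3 of astrocyte-like cells is highest in the Myoc cluster (number 40).

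Socs3, the Stat3 target that limits gp130 signalling, was highest among the classes found in every mouse in smooth muscle-like cells at 732 ± 160 CPM and next in microglia-like cells at 439 ± 62.6 CPM. Their ranges overlapped, and microglia-like values lay above those of every later class in the order except the oligodendrocyte precursor-like one, a class of 5 to 43 cells per mouse. Neutrophil-like cells had 251 ± 37.2 CPM, fibroblast-like cells 248 ± 53.5 CPM, endothelial-like cells 178 ± 52.8 CPM and pericyte-like cells 92.5 CPM. Microglia-like cells held 63.0% of all Socs3 UMIs. Among microglia-like clusters it ranged from 230 CPM in cells led by Cd5l and Igf1 to 578 CPM in cells led by Il1a and Tnf.

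Sequence before the transcription start is shown for Socs3, the target, and for Il6 and Lif, the ligands whose all-cell levels differed most between the groups. Motifs were searched on both strands of the 250 bases before the start in the RefSeq promoter table (GRCm38.p6), which held 8 of the 10 genes, not Osm and Clcf1. The Stat motif TTCNNNGAA, which is its own reverse complement, was found in the Socs3 promoter (chr11:117969367-117969616, minus strand), with capitals marking bases 154 to 146 before the start.
Socs3: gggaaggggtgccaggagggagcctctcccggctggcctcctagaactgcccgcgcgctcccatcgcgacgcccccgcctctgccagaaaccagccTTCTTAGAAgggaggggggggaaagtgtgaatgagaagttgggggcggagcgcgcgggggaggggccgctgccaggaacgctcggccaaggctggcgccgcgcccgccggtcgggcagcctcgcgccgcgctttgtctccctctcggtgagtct
The Il6 promoter (chr5:30012864-30013113, plus strand) held the AP-1 motif TGANTCA at bases 249 to 243, in capitals.
Il6: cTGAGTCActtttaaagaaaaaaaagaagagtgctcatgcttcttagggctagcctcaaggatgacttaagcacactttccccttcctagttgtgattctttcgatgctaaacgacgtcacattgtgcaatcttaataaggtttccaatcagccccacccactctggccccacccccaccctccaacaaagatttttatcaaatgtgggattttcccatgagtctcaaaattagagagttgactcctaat
The Lif promoter (chr11:4257318-4257567, plus strand) held the AP-1 motif at bases 228 to 222, in capitals.
Lif: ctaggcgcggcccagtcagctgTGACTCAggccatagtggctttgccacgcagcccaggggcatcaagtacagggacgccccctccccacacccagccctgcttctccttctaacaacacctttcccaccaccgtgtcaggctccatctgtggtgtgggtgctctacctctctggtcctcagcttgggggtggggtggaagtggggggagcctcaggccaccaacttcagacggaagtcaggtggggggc
Of the 10 promoters listed for these genes, 1 held the Stat motif and 3 the AP-1 motif, the last of them a promoter of Il11 at bases 98 to 92. Of 32851 promoters of this length in the table, 7.02% held the Stat motif and 6.75% the AP-1 motif. A match of letters is a description and does not show binding.

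The genes whose pattern over 16 classes was most like that of each gene, by Pearson's r of log2(CPM + 1), were Lrrc25 (0.976) and Tlr2 (0.973) for Osm, Timp3 (0.981) and Adamts9 (0.981) for Osmr, Pdgfrb (0.976) and Heyl (0.970) for Il11, and Six5 (0.893) and C1s1 (0.889) for Il6. Lgals1 (0.874) and Car13 (0.777) were closest to Lif, Padi2 (0.788) and H2-Q6 (0.727) to Clcf1, Rps6ka1 (0.909) and Zc3h12a (0.907) to Il6ra, and Creb3l2 (0.940) and Lrig3 (0.914) to Il6st. Kif13a (0.906) and Ctnnd1 (0.891) were closest to Lifr, and Maff (0.925) and Irf1 (0.917) to Socs3. Classes share libraries and are not independent points.

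The comparison of ancrod with saline addressed how the family differed when fibrinogen was depleted. Summed over all kept droplets of a mouse, 0 of the 10 genes passed an adjusted p of 0.05 by the quasi-likelihood test of edgeR, and 5 had an unadjusted p under 0.05. Of all 16275 genes tested, 2 passed (0.0123%) and 19.9% had an unadjusted p under 0.05. DESeq2 called 1316 of the same 16275 genes, among them Il6, Lif, Il11, Il6ra and Lifr. Il6 was 4.26, 5.41, 4.51 and 3.93 CPM in saline and 8.69, 6.80, 12.6 and 9.03 CPM in ancrod mice, without overlap (log2 fold change 1.00, SE 0.21, edgeR adjusted p = 0.119). Il11 was 0.463 ± 0.111 and 0.764 ± 0.0679 CPM (SD, n = 4), also without overlap, while in fibroblast-like cells its log2 fold change was -0.23. Lif was 1.68, 2.82, 1.34 and 1.72 CPM and 4.28, 2.33, 3.96 and 5.67 CPM, where 1 ancrod mouse lay within the saline range (log2 fold change 1.07, SE 0.32, edgeR adjusted p = 0.161).

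Receptor values lay lower in ancrod mice for 2 genes. Il6ra was 116, 121, 111 and 106 CPM with saline and 99.1, 93.1, 76.2 and 68.0 CPM with ancrod (log2 fold change -0.47, SE 0.13, edgeR adjusted p = 0.149). Lifr was 70.03, 49.3, 45.4 and 46.2 CPM and 43.1, 43.0, 34.3 and 34.4 CPM (log2 fold change -0.47, SE 0.14, edgeR adjusted p = 0.161). Neither gene overlapped between groups, and over all genes 10.7% did not overlap, 5.77% higher and 4.9% lower in ancrod. Osm was 69.7 ± 20.0 and 61.0 ± 5.90 CPM, Osmr 62.4 ± 8.40 and 73.1 ± 9.66 CPM, and Socs3 264 ± 49.5 and 262 ± 59.1 CPM, all with overlap. In such sums, fewer cells of a class and less RNA per cell cannot be told apart. With the same class weights in every mouse, the log2 differences were 0.55 for Il6, 0.62 for Lif, 0.17 for Il11, -0.19 for Il6ra and -0.27 for Lifr, and none passed. The groups then overlapped for each of these genes. Il6, for example, ran from 4.07 to 9.28 CPM with saline and from 6.45 to 9.75 CPM with ancrod.

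**Figure D4:**
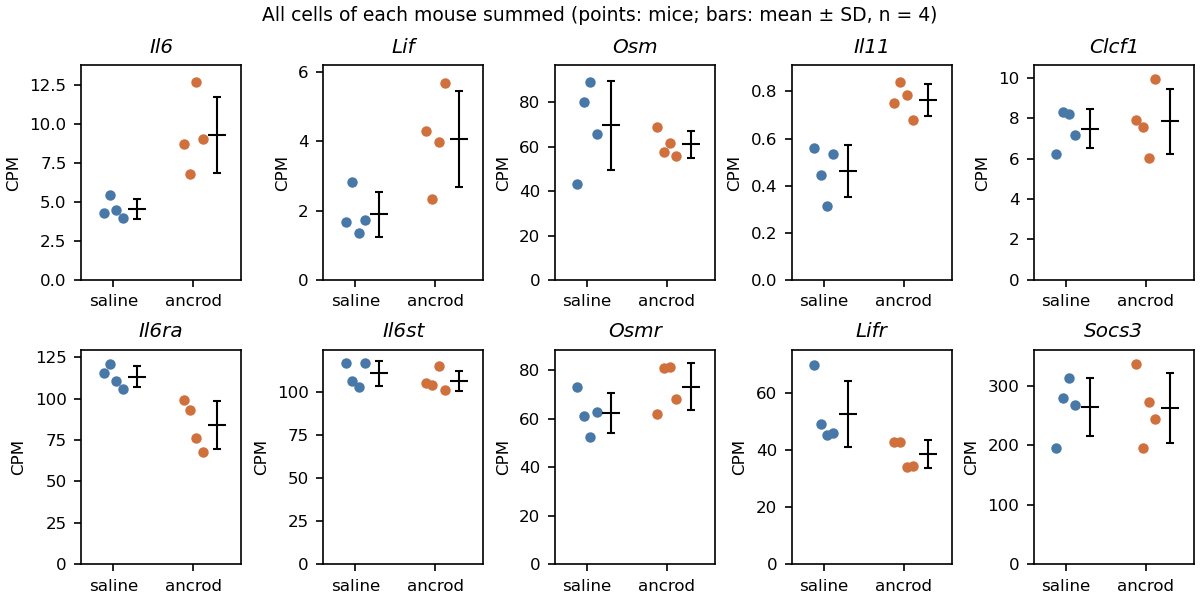
CPM of the 10 genes in the summed cells of each mouse, saline and ancrod (points, mice; bars, mean ± SD, n = 4; each axis starts at 0). Il6 and Il11 lie higher and Il6ra and Lifr lower in the ancrod mice without overlap, and none of these differences passed the adjusted threshold in edgeR. With the same class weights in every mouse, the groups overlapped for each of these genes.

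The share of cells with a ligand UMI after thinning did not differ past the threshold for any of the 5 ligands (two-sided exact permutation test over 70 arrangements, smallest possible p 0.0286, adjusted over 5). A single ligand at that p has an adjusted p of 0.143, so only several ligands together could pass. Il6 was seen in 1.22 ± 0.356% of saline and 1.83 ± 0.568% of ancrod cells (exact p = 0.143, adjusted p = 0.357). Lif was seen in 0.517 ± 0.125% and 0.841 ± 0.201% (exact p = 0.0571, adjusted p = 0.286). Osm was at 20.4 ± 3.77% and 20.1 ± 2.68%. Cells under 5000 UMIs, 17.2% of saline and 17.0% of ancrod cells, were left out. Without thinning Lif was seen in 1.31 ± 0.275% and 2.71 ± 0.630% of cells (exact p = 0.0286, adjusted p = 0.0952), in libraries that differed in depth. Thinned to 2000 UMIs, which left out no cell for depth, Lif was seen in 0.207 ± 0.0988% and 0.436 ± 0.0791% (exact p = 0.0286, adjusted p = 0.143). The mice ran from 0.128 to 0.339% with saline and from 0.391 to 0.554% with ancrod, without overlap. Such shares were not computed over all genes, so this has no background. They are shares of all cells and depend on the mix of classes. Fibroblast-like cells, which held 48.9% of all Lif UMIs, averaged 3.02% of saline and 7.31% of ancrod cells. The part of this mix in the Lif shares was not tested.

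Within classes, 74 tests of the 10 genes met the filter on low counts, and 1 passed: Osmr rose in pericyte-like cells. Over the 12 classes together, 0.0192% of all tests passed, and in fibroblast-like cells 0.00783%. It was 179, 181, 205 and 181 CPM in saline and 364, 292, 243 and 244 CPM in ancrod mice, so every ancrod mouse lay above every saline mouse (log2 fold change 0.67, SE 0.13, edgeR adjusted p = 0.0444). In this class 21 of 9058 genes passed (0.232%), with 0.21% higher in ancrod, and 2.34% of the genes were higher in ancrod without overlap. Pericytes wrap capillaries and share their basement membrane with the endothelium. The call rested on few cells, 152 to 214 per saline and 92 to 176 per ancrod mouse. Median depth per cell was 5040 to 5390 UMIs with saline and 4697 to 7207 UMIs with ancrod. A cluster of 524 cells led by Rgs5, Vtn and Abcc9, with Osmr at 189 CPM, was not part of this class. It scored higher on endothelial (0.850) than on pericyte markers (0.621) and was left unnamed by a rule set after the clusters were seen. The call was lost on leaving out saline replicate 1, 2, 3 or 4 or ancrod replicate 1 or 2 (edgeR adjusted p 0.0730 to 0.153), with mitochondrial UMIs under 10% (0.0566) and with doublets kept (0.0594). The log2 fold change stayed between 0.52 and 0.71 in these fits.

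Of the 30 pathway genes tested in pericyte-like cells, 1 passed. Junb, an AP-1 subunit that responds to Stat3, was the only 1 of 401 tests of the 47 pathway genes to pass. It was 433, 533, 537 and 330 CPM and 1503, 711, 708 and 1003 CPM, without overlap (log2 fold change 1.15, SE 0.21, edgeR adjusted p = 0.0329), and its call was lost without saline replicate 1, 2, 3 or 4 or ancrod replicate 1 (0.0509 to 0.114), with mitochondrial UMIs under 10% (0.0543) and with doublets kept (0.175). The log2 fold change of Junb stayed between 0.77 and 1.29 under all alternatives run. Socs3 was 89.1, 48.4, 58.9 and 34.4 CPM and 203, 82.8, 95.7 and 128 CPM, with 1 saline mouse inside the ancrod range (log2 fold change 1.14, SE 0.28, edgeR adjusted p = 0.105). Fosl2 (1.503, edgeR adjusted p = 0.0554), Myc (1.29, 0.0667) and Cebpb (0.90, 0.115) had positive log2 fold changes that did not pass. Of the 30, 26 had a log2 fold change above 0 and 4 below 0, with a median of 0.28, and the median over all genes of the class was -0.01. Of the 20 target genes on the list, 15 were tested and all 15 had a log2 fold change above 0. Most tested targets were also above 0 in endothelial-like (16 of 19), fibroblast-like (14 of 18) and border-associated macrophage-like cells (12 of 14). Fewer were above 0 in monocyte-like (6 of 15), dendritic cell-like (3 of 14), neutrophil-like (4 of 14) and T or NK cell-like cells (4 of 11). Among the receptors in pericyte-like cells, Il6st (0.02) and Lifr (0.00) had log2 fold changes close to 0. Osm in these cells was 2.13 CPM with saline and 2.18 CPM with ancrod.

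Several other measures moved with this result. The summed level of 10 immediate early and heat shock genes, a list chosen after their values were seen, was 1551 to 3584 CPM in saline and 4052 to 6301 CPM in ancrod pericyte-like cells. All 10 had a log2 fold change above 0 and Egr1 passed, as did Col1a2 of the fibroblast markers and Fn1 of the infiltrating macrophage markers. Summed fibroblast markers were 829 to 1008 and 1225 to 1523 CPM (none of 9 at 0), smooth muscle markers 715 to 878 and 924 to 1554 CPM (none of 6 at 0), and infiltrating macrophage markers 138 to 175 and 198 to 404 CPM (none of 8 at 0), without overlap. Most of this last sum was Fn1, at 114, 143, 112 and 104 CPM in saline and 351, 254, 157 and 179 CPM in ancrod mice. Only 2 of the 8 infiltrating macrophage markers met the filter on low counts. Astrocyte markers went the other way, at 5572 to 6300 and 3595 to 5333 CPM (none of 9 at 0), as did oligodendrocyte precursor markers at 551 to 609 and 417 to 522 CPM (3 of 9 at 0) and ependymal markers at 497 to 558 and 411 to 482 CPM (2 of 6 at 0), all without overlap. Endothelial and microglia marker sums overlapped, neutrophil markers (1 of 8 at 0, Ly6g) were 7.58 to 37.1 and 6.18 to 317 CPM, and pericyte markers were 29153 to 32795 and 29568 to 31516 CPM. Their part in the result was not tested.

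Osmr in the other receiving classes was similar in both groups or varied more between mice. Endothelial-like cells had 193 ± 7.20 CPM with saline and 200 ± 47.1 CPM with ancrod (log2 fold change 0.06, SE 0.15). Fibroblast-like cells had 181 ± 29.5 and 194 ± 54.5 CPM (0.11, SE 0.20), astrocyte-like cells 78.3 ± 19.4 and 85.0 ± 24.8 CPM (0.12, SE 0.21), and smooth muscle-like cells 323 ± 143 and 266 ± 36.4 CPM (-0.28, SE 0.28). For each mouse, log2 CPM of Osmr in another class was subtracted from that in pericyte-like cells. The group means of these values differed by 0.57 against endothelial-like cells (two-sided exact permutation test, p = 0.0286, the smallest possible, adjusted over 4 pairs p = 0.114). Against fibroblast-like, astrocyte-like and smooth muscle-like cells they differed by 0.52, 0.48 and 0.75 (exact permutation, adjusted p = 0.152, 0.152 and 0.171). These are not differences of the edgeR folds above. The comparison was not planned, and its reference is the class where Osmr was called in the same mice. The differences are therefore not independent of that call. A single pair at the smallest possible p cannot pass after this adjustment, so the test does not tell whether the classes differ.

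**Figure D5:**
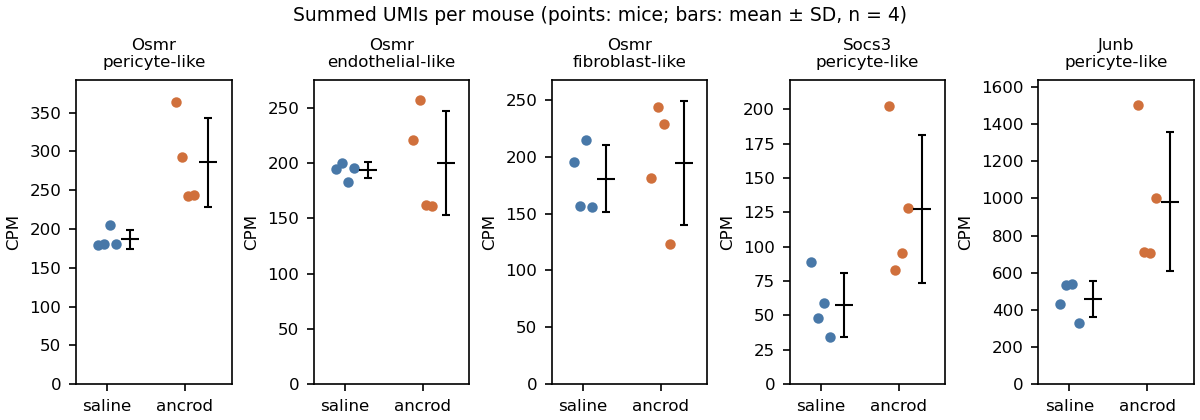
CPM per mouse of Osmr in pericyte-like, endothelial-like and fibroblast-like cells and of Socs3 and Junb in pericyte-like cells, saline and ancrod (points, mice; bars, mean ± SD, n = 4; each axis starts at 0). Osmr and Junb of pericyte-like cells do not overlap between the groups, and Osmr of the other classes does.

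Of the 74 tests, 11 had an unadjusted p under 0.05 and 5 did not overlap, Osmr in pericyte-like cells among them. Over all genes and classes tested, 6.14% had an unadjusted p under 0.05 and 3.41% did not overlap. Osm in monocyte-like cells was 91.7, 128, 82.2 and 94.3 CPM with saline and 41.5, 64.5, 81.2 and 78.8 CPM with ancrod (log2 fold change -0.69, SE 0.22, edgeR adjusted p = 0.963). Il6ra in the same cells was 255, 180, 182 and 180 CPM and 163, 150, 144 and 155 CPM (log2 fold change -0.38, SE 0.13, edgeR adjusted p = 1.00). Of all genes in monocyte-like cells 1.08% were lower in ancrod without overlap, and the saline mice had 21 to 212 such cells. Lif in fibroblast-like cells was 9.01, 10.6, 3.01 and 3.08 CPM and 13.3, 12.2, 10.7 and 18.2 CPM (log2 fold change 1.00, SE 0.38, edgeR adjusted p = 0.341), where 3.04% of genes were higher in ancrod without overlap. Saline replicate 3 had only 29 fibroblast-like cells, and this log2 fold change ran from 0.46 to 1.36 under the alternatives. Lifr in endothelial-like cells was 119, 86.4, 83.7 and 95.1 CPM and 66.3, 82.0, 74.3 and 78.8 CPM (log2 fold change -0.34, SE 0.11, edgeR adjusted p = 0.546), where 1.61% were lower in ancrod without overlap. Lifr was 64.5 CPM in the cluster led by Il1r1 and Ackr1, 49.2 CPM in the Selp cluster and 84.1 to 139 CPM in the others. The Il1r1 cluster held 163, 173, 194 and 199 of 1247, 1032, 1301 and 1055 endothelial-like cells in saline mice. In ancrod mice it held 106, 180, 103 and 129 of 388, 657, 547 and 818. The part of this mix in the Lifr result was not tested.

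The classes with the most UMIs of Osm, Il6, Lif, Clcf1 and Il11 were all tested for that ligand, and none passed. Osm in microglia-like cells was 119 ± 20.2 CPM with saline and 115 ± 5.94 CPM with ancrod (log2 fold change -0.02, SE 0.13), and in infiltrating macrophage-like cells 126 ± 27.7 and 135 ± 20.7 CPM (0.07, SE 0.16). In neutrophil-like cells it was 101 ± 46.3 and 53.2 ± 28.9 CPM with overlap (-1.25, SE 0.42, edgeR adjusted p = 0.996). Il6 in fibroblast-like cells was 26.0 ± 14.2 and 37.8 ± 13.9 CPM (0.64, SE 0.40, edgeR adjusted p = 0.509). Clcf1 in microglia-like cells was 13.8 ± 0.665 and 17.4 ± 6.87 CPM (0.36, SE 0.22, edgeR adjusted p = 0.957). Il11 was tested in fibroblast-like cells only, which held 49.7% of its UMIs, at 2.73 ± 0.450 and 2.34 ± 0.784 CPM (-0.23, SE 0.28, edgeR adjusted p = 0.766). Socs3 in fibroblast-like cells was 211 ± 29.1 and 284 ± 47.6 CPM (0.44, SE 0.14, edgeR adjusted p = 0.307), and in microglia-like cells 437 ± 49.6 and 441 ± 81.7 CPM (0.05, SE 0.15). Il6 had a log2 fold change above 0 in all 6 classes where it was tested, from 0.15 in microglia-like to 1.78 in astrocyte-like cells, and none passed (lowest edgeR adjusted p 0.509). Astrocyte-like Il6 was 1.33, 2.40, 7.65 and 0.775 CPM with saline and 13.2, 3.91, 13.5 and 3.97 CPM with ancrod, with 1 saline mouse inside the ancrod range. The clusters led by Ckap2 and by Myoc, where Il6 was highest in this class, made up 11.5 to 35.8% of it in saline and 13.4 to 44.0% in ancrod mice. Of the endothelial-like cells, the Selp cluster held 28, 55, 70 and 42 of 1247, 1032, 1301 and 1055 in saline mice. In ancrod mice it held 46, 18, 54 and 79 of 388, 657, 547 and 818. Il6 within that cluster, given above, overlapped between the groups, with its highest values in saline mice. The part of these mixes in the Il6 results was not tested. Of the pathway genes, Gfap, the intermediate filament of astrocytes, had a log2 fold change of -0.02 in astrocyte-like cells and 2.61 in T or NK cell-like cells (edgeR adjusted p = 0.219). The source of the Gfap RNA in T or NK cell-like cells was not tested.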

How the data were processed

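Single-cell RNA sequencing covered 8 libraries (10x Genomics 3′ v3.1), 1 per mouse. The authors aligned reads with Cell Ranger 7.1.0 (STAR) to GRCm39 and deposited unfiltered UMI counts per gene and droplet, whole numbers without normalization. The genes and lists were chosen with earlier results of these data known.

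Droplets with at least 2000 UMIs and under 20% mitochondrial UMIs (13 genes) were kept. Doublets were removed by simulated-doublet scores at 0.8% per 1000 cells. Cells were clustered (3000 variable genes, 20 principal components, 20 neighbours, Leiden resolution 2) without the genes described. Rules that left clusters unnamed (5387 cells) were set after the clusters were seen.

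UMIs were summed per mouse and class, filtered with filterByExpr, scaled with TMM and tested with edgeR 4.0.16 (glmQLFTest, Benjamini-Hochberg over all genes of the fit, threshold 0.05), a step tested on simulated counts. All-cell sums kept the doublets. DESeq2 1.42.0 was an alternative, and limma 3.58.1 tested the sums with the same class weights. CPM used the unscaled sums. Named genes were the 10 genes in every class tested, pathway genes past the threshold, and the 2 closest genes by Pearson's r. The other pathway genes, Egr1 and the cluster genes were named after their values were seen. Nothing states separate litters or days within a batch, so p-values measure the spread between these mice. Floors for counts of 0 used 3 counts.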

Additional observations from a re-analysis of the deposited data

Results flagged for a closer look

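Among 54 groups of 4 mice checked, 3 held 1 mouse far from the other 3, and chance alone flags about 1 group in 20. Lifr in all cells was 70.03 CPM in saline replicate 1, against 45.4 to 49.3 CPM in the other saline mice. Il6ra in monocyte-like cells was 255 CPM in saline replicate 1, which had 21 such cells, against 180 to 182 CPM in the others. Osmr in pericyte-like cells was 205 CPM in saline replicate 3, against 179 to 181 CPM in the others, and this mouse was still below every ancrod mouse.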

How the results depend on the processing

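Of 417 alternative values for the 22 folds checked, 389 kept their direction and side of the threshold, 15 lost the threshold, 7 gained it and 6 changed direction. In all cells, edgeR called 0 of the 10 genes and DESeq2 called 5, with the calls over all genes given above. By class, the 1 call of the 10 genes became 2 without the filter on low counts and 2 with the replicate block (Socs3 of pericyte-like cells was added in both), 0 with mitochondrial UMIs under 10%, 0 with doublets kept, and 0 to 1 on leaving out single mice. The 1 pathway call became 3 with DESeq2 (Junb of pericyte-like cells, and Gfap of endothelial-like and T or NK cell-like cells), 14 without the filter, 3 with the replicate block, 4 with batch as a covariate, 2 in batch 1 alone, 0 with mitochondrial UMIs under 10%, and 0 to 2 on leaving out single mice. The calls over all genes in these class fits are not given here, so the counts do not show whether the listed genes stood out. The source of Gfap RNA in endothelial-like and T or NK cell-like cells was not tested. The block changed no other call of the 10 genes. Same-numbered mice had r of -0.557 to 0.218 over 52 pairs, and no class had every r above 0.1, so the numbers were not taken as pairs. Of the 12 pairs above 0.1, 8 were replicate 4, which shares batch 2 as well as a number (r 0.217 in all cells). Leaving out single mice moved the log2 fold change of Clcf1 in all cells from -0.10 to 0.13 and that of Socs3 from -0.21 to 0.10. Clcf1 turned to -0.12 in batch 1 alone, -0.06 without saline replicate 1 and -0.10 without ancrod replicate 4, and Socs3 to 0.08 without saline replicate 3, 0.10 without ancrod replicate 2 and 0.11 with the same class weights. The cause was not tested. Ligand shares gave 0 calls under every alternative run, which says nothing of stability: a single ligand cannot pass after adjustment over 5 in any of them, and batch 1 alone and the replicate block cannot reach 0.05 even unadjusted (smallest possible p 0.1 and 0.125). The planned earlier quasi-likelihood method was the installed default and gives the same fit, and the planned higher UMI minimum cannot change shares of cells thinned to 5000. The filter on low counts left Il11 untested in 11 of 12 classes, Lif in 8 and Il6, Clcf1 and Osmr in 6 each. Smooth muscle-like values rest on 18 to 42 cells per mouse.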
